A study of Mus musculus with 8 samples.

Results

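Selective autophagy and mitophagy receptors were followed at the mRNA level in mouse embryonic fibroblasts (MEFs), connective tissue cells of the embryo grown in culture. The receptors were 10 genes picked by symbol from the 49492 rows of the expression table, namely *Sqstm1*, *Nbr1*, *Optn*, *Tax1bp1*, *Calcoco1*, *Bnip3*, *Bnip3l*, *Fundc1*, *Pink1* and *Phb2*. All 10 were found and all 10 passed the filter on low values, with at least 408 reads in every library. The study sequenced polyA RNA from 4 groups of 2 libraries each: Pontin WT cells and Pontin RA cells, each in normal medium or under glucose starvation. Pontin, encoded by *Ruvbl1*, is a chromatin-remodeling ATPase, and in the RA form a pair of arginines that the enzyme CARM1 methylates was replaced by alanine. Per the study's methods, both genotypes were Pontin f/f MEFs made by the 3T3 protocol, carried a stable Flag-tagged Pontin copy from a lentivirus selected with hygromycin, and lost their endogenous Pontin to Cre virus. Starved cells were kept in DMEM without glucose with dialyzed serum, for a time that is not given for these libraries. The culture medium described in the methods was DMEM with serum not said to be dialyzed. The lack of glucose and the change of serum therefore cannot be told apart. Each genotype was 1 stable cell line, so a difference between the Pontin forms and a difference between the lines cannot be told apart, and the labels do not say whether the 2 libraries of a group came from separate cultures, while the study's methods say in general that experiments were repeated independently.

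Autophagy encloses part of the cytoplasm in a double membrane and delivers it to the lysosome. In its selective form a receptor protein binds the cargo on one side and LC3 or GABARAP proteins on the growing membrane on the other. Some receptors recognise ubiquitin chains on the cargo, while others sit in the outer mitochondrial membrane and bind LC3 directly. The PINK1 kinase gathers on damaged mitochondria and marks them for the first kind. In fibroblasts these routes are known from starvation, low oxygen and mitochondrial damage. Receptors are themselves broken down with their cargo, so mRNA does not give the amount of protein.

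Values are read counts scaled to a common library total (CPM), with a library size that the authors adjusted per library. Libraries held 43205841 to 56363034 recovered reads, and 3 reads, the limit of detection used, corresponded to 0.0548 to 0.069 CPM. *Ruvbl1* lay between 27.6 and 28.4 CPM in the 4 WT libraries. In RA it stood at 36.8 and 32.0 CPM in normal medium and at 45.0 and 42.9 CPM under starvation. In limma on log2(CPM + 1), RA exceeded WT by 0.29 in normal medium (SE 0.065, adjusted p = 0.00946) and by 0.62 under starvation (SE 0.065, adjusted p = 2.94e-07). The responses differed by 0.34 (SE 0.091, adjusted p = 0.00568). Reads of the added Flag-tagged copy may be counted there, which was not tested, so these values were not taken as a check of the genotype labels. The part of this difference in the receptor results was not tested. All 8 fibroblast markers stood at 1 CPM or more in every library. Their sum was 10368 to 10452 CPM in WT in normal medium, 5616 to 5715 CPM in WT under starvation, 10203 to 10517 CPM in RA in normal medium and 7202 to 7220 CPM in RA under starvation. Under starvation *Col1a1* fell from 1678 and 1697 CPM to 211 and 198 CPM in WT and from 1555 and 1585 CPM to 637 and 642 CPM in RA. *Col1a2*, *Col3a1*, *Vim* and *Postn* also fell in both genotypes, and *Pdgfrb* and *Thy1* fell in WT but overlapped in RA. *Fn1* gave 2390 and 2324 CPM and then 2493 and 2332 CPM in WT, and rose in RA from 2375 and 2366 CPM to 3161 and 3185 CPM. Marker sums of other cell types were small but higher under starvation in most cases. The endothelial sum was 2.52 to 3.39 CPM in WT and 2.02 to 3.43 CPM in RA in normal medium, and 8.92 to 9.43 CPM and 5.99 to 6.34 CPM under starvation, with *Pecam1* and *Cdh5* below 1 CPM in every library. The immune sum was 13.3 to 14.0 CPM and 16.2 to 17.6 CPM in normal medium, and 23.9 to 25.1 CPM and 21.2 to 21.8 CPM under starvation, with *Ptprc*, *Adgre1* and *Itgam* below 1 CPM. For skeletal muscle it was 1.61 to 2.30 CPM and 2.13 to 2.16 CPM in normal medium, and 3.69 to 4.20 CPM and 4.70 to 4.79 CPM under starvation, with *Myod1*, *Myog* and *Des* below 1 CPM. The epithelial sum stayed between 1.48 and 3.68 CPM, with *Epcam*, *Krt8* and *Cldn4* below 1 CPM. Markers above 1 CPM carried these sums, among them *Csf1r*, *Kdr* and *Acta1* in starved cells and *Tek* in starved WT cells, and the part of any of these shifts in the results was not tested. In bulk RNA a smaller share of a cell type and less RNA per cell cannot be told apart.

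The stretches upstream of the start site are shown for the receptor and the adaptor with the widest gap between the genotypes under starvation, *Bnip3* and *Calcoco1*, and for *Sqstm1*, which went the other way. They come from RefSeq on GRCm38.p6, run 5′ to 3′ on the strand of the gene, and end at the base before the annotated gene. Capitals mark CACGTG, the E-box core of the CLEAR element that lysosomal gene activators of the TFEB family are known to bind.
Bnip3: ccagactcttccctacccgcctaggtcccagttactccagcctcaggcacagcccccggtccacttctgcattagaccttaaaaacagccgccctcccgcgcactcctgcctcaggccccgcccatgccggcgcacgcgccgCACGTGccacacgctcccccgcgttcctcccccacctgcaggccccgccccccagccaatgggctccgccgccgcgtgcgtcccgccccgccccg
Sqstm1: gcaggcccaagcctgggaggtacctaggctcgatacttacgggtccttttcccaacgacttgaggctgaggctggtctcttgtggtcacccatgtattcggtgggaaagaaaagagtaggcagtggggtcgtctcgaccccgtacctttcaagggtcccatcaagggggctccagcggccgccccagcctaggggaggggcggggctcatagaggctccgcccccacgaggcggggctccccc
Calcoco1: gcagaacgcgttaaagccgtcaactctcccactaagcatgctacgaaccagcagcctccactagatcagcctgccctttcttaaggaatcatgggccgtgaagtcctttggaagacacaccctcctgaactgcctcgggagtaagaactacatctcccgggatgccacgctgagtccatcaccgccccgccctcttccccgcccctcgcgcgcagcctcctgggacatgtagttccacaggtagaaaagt
The *Bnip3* stretch is chr7:138909520-138909756, that of *Sqstm1* is chr11:50210828-50211070 and that of *Calcoco1* is chr15:102722179-102722428, all on the minus strand. Their GC contents were 72.6%, 64.2% and 57.6%.

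Of the receptors, 9 of 10 matched a RefSeq promoter window of 250 bases before and 50 bases after a start site, with 11 windows in all. CACGTG, read on both strands, occurred in 1 of the 11 windows, that of *Bnip3* at position -108, and in 7.15% of 32851 mouse promoters. The hypoxia response core ACGTG, whose letters CACGTG contains, occurred in the windows of *Bnip3*, *Nbr1*, *Phb2* and *Tax1bp1*, which is 4 of 11, against 19.6% of all promoters. The FOXO response element GTAAACA, the element of the factor the study pairs with Pontin, was in 0 of the 11 windows and in 3.65% of all promoters. At such a share 11 windows are too few to show a lack of the element. The study assayed FOXO elements of *Map1lc3b* at kilobase distances from the start site and ran ChIP at a FOXO element of *Bnip3*. The short windows therefore do not speak to its sites. TGACNNNGC, an antioxidant response element, stood in the *Tax1bp1* window and in 12.4% of promoters, and the C/EBP-ATF composite TGATGNAA in none of the 11 and in 3.97%. These are matches of letters in a short window only.

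Glucose starvation raised 8 of the 10 receptor mRNAs in WT cells and lowered 1, *Fundc1*, while *Phb2* did not pass the test. Of all 16232 genes tested in WT, 39.3% were called higher and 39.2% lower. The median change of the receptors was 1.05 on the log2(CPM + 1) scale, against 0.0049 over all tested genes, with a range from -0.71 to 2.36. In RA cells 8 receptors rose and 2 fell, against 35.0% and 33.7% of all genes, and their median change was 0.41 against 0.013. The response differed between the genotypes for 7 receptors, lower in RA for 6 and higher in RA for *Sqstm1*, where the background was 26.1% lower and 24.5% higher. Among the 6, the study lists *Bnip3*, *Nbr1* and *Pink1* from a gene cluster of these same libraries, so this count is not independent evidence. The median difference of the responses was -0.47 for the receptors and -0.011 for all tested genes. Over all tested genes the quartiles of the change were -0.52 and 0.45 in WT and -0.33 and 0.33 in RA, a narrower spread. Most receptors rose in WT, and the part of this narrower spread in their differences was not tested.

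**Figure D1:**
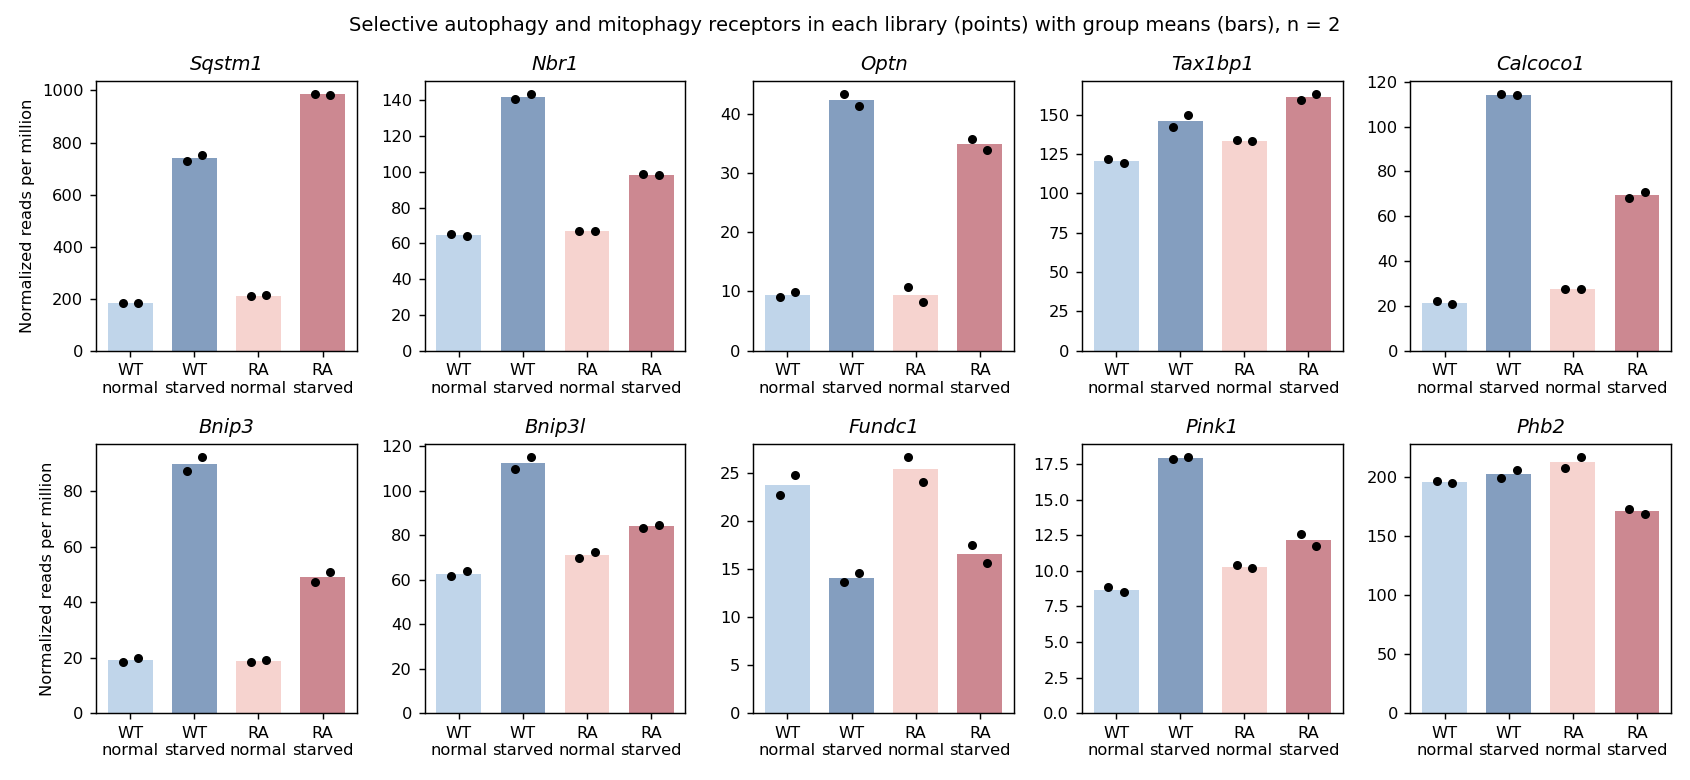
Normalized reads in CPM (y axes, from 0, one scale per gene) of the 10 receptors in each of the 8 libraries (points) with the mean of the 2 libraries of a group (bars), for WT and RA cells in normal medium and under glucose starvation. *Sqstm1* reached 985 in starved RA cells against 739 in starved WT cells, whereas *Nbr1*, *Optn*, *Calcoco1*, *Bnip3*, *Bnip3l* and *Pink1* were highest in starved WT cells.

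*Sqstm1* (chr11:50199366-50210827, GRCm38, minus strand) encodes p62, which binds ubiquitin chains and LC3 and gathers ubiquitinated cargo into condensates. It stood at 184 and 184 CPM in unstarved WT cells and at 727 and 752 CPM in starved WT cells. The RA libraries gave 208 and 215 CPM in normal medium and 987 and 984 CPM under starvation. Every starved library lay above every library in normal medium, and the RA libraries lay above the WT libraries in both media. The mean rose 4.02-fold in WT (log2 change 2.0, SE 0.036, adjusted p = 9.47e-18 in limma, as for all adjusted p-values here) and 4.66-fold in RA (2.21, SE 0.036, adjusted p = 1.5e-17). RA exceeded WT 1.15-fold in normal medium (0.20, SE 0.036, adjusted p = 0.00198, and 0.0685 without the mean-variance trend) and 1.33-fold under starvation (0.41, SE 0.036, adjusted p = 3.82e-08). *Sqstm1* was the receptor whose response was larger in RA, by 0.21 (SE 0.052, adjusted p = 0.00246). A gene on the opposite strand, listed as *3010026O09Rik* (*Mrnip*), shares 580 exon bases with *Sqstm1* and stood at 0.210% to 2.05% of its value.

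*Nbr1* (chr11:101552149-101581951, plus strand) encodes a ubiquitin-binding receptor that works with p62 and in the autophagy of peroxisomes. WT libraries gave 65.0 and 63.9 CPM in normal medium and 140.5 and 144 CPM under starvation. RA libraries gave 66.9 and 67.0 CPM and then 98.8 and 98.2 CPM. Starvation separated the groups in both genotypes, and the starved RA libraries fell between the starved WT libraries and those in normal medium. The rise was 2.20-fold in WT (1.13, SE 0.040, adjusted p = 5.5e-14) and 1.47-fold in RA (0.55, SE 0.040, adjusted p = 1.99e-09), and the difference of the responses was -0.58 (SE 0.056, adjusted p = 2.88e-07). In normal medium RA minus WT was 0.055 (SE 0.040, adjusted p = 0.429), a difference that did not pass the test. Under starvation the RA mean was 0.693 times the WT mean (-0.52, SE 0.040, adjusted p = 5.89e-09).

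*Optn* (chr2:5020642-5064051, minus strand) encodes optineurin, a ubiquitin-binding receptor that TBK1 phosphorylates and that acts in the PINK1 and Parkin route. Its values were 9.04 and 9.88 CPM in WT and 10.7 and 8.18 CPM in RA in normal medium, where the genotypes overlapped. Starved WT libraries held 43.3 and 41.2 CPM, and starved RA libraries 35.7 and 33.9 CPM, with no overlap. *Optn* rose 4.47-fold in WT (2.05, SE 0.094, adjusted p = 2.02e-12) and 3.69-fold in RA (1.79, SE 0.094, adjusted p = 2.76e-11). The responses differed by -0.26 (SE 0.133, adjusted p = 0.117), which was not called, although without RA in normal medium replicate 2 it was -0.43 (adjusted p = 0.00353). The starved genotypes differed by -0.27 (SE 0.094, adjusted p = 0.0179), a call lost without starved WT replicate 1 (-0.24, adjusted p = 0.107) or starved RA replicate 2 (-0.24, adjusted p = 0.11), with no filter on low values (adjusted p = 0.0915) and without the mean-variance trend (adjusted p = 0.0697). RA minus WT in normal medium was -0.015 (SE 0.094, adjusted p = 0.944) and changed sign with the library left out. *4930551O13Rik*, on the opposite strand, shares 73 exon bases with *Optn* and stood at 7.21% to 13.5% of its value.

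*Tax1bp1* (chr6:52713729-52766780, plus strand) encodes a ubiquitin-binding receptor of the same family as NDP52 that clears protein aggregates. In normal medium it gave 122 and 119 CPM in WT and 134 and 133 CPM in RA. Under starvation it gave 142 and 150 CPM in WT and 160 and 163 CPM in RA. RA libraries were above WT libraries in both media and starved libraries above the others within each genotype. The rise was 1.21-fold in both WT (0.28, SE 0.039, adjusted p = 6.48e-06) and RA (0.27, SE 0.039, adjusted p = 1.09e-05), and the responses differed by -0.0034 (SE 0.056, adjusted p = 0.965). RA minus WT was 0.15 in normal medium (SE 0.039, adjusted p = 0.0275) and 0.14 under starvation (SE 0.039, adjusted p = 0.00469). The first call was lost without any 1 of the 4 libraries in normal medium (0.13 to 0.16, adjusted p = 0.0568 to 0.163) and with scaling to total reads (0.099, adjusted p = 0.117), among other settings, and the second without starved WT replicate 1 (0.10, adjusted p = 0.0632) or starved RA replicate 2 (0.13, adjusted p = 0.0516).

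*Calcoco1* (chr15:102706777-102722178, minus strand) encodes a relative of NDP52 known as a receptor for the autophagy of the endoplasmic reticulum and Golgi. It had 22.0 and 20.9 CPM in WT and 27.6 and 27.5 CPM in RA in normal medium. With starvation it reached 115 and 114 CPM in WT and 68.1 and 70.7 CPM in RA. RA libraries were therefore the higher ones in normal medium and the lower ones under starvation, with no overlap in either medium. The rise was 5.33-fold in WT (2.36, SE 0.049, adjusted p = 4.8e-17), the highest of the 10, and 2.52-fold in RA (1.30, SE 0.049, adjusted p = 3.52e-13). The responses differed by -1.06 (SE 0.069, adjusted p = 2.19e-09), the lowest value of the 10 and at the 0.85 percentile of all tested genes. RA exceeded WT by 0.35 in normal medium (SE 0.049, adjusted p = 1.73e-04) and was 0.71 below it under starvation (-0.71, SE 0.049, adjusted p = 1.67e-09).

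*Bnip3* (chr7:138890836-138909519, minus strand) encodes an outer mitochondrial membrane protein that binds LC3 directly and is a classic target of the hypoxia factor HIF-1. Its libraries held 18.7 and 20.1 CPM in WT and 18.5 and 19.2 CPM in RA in normal medium, with overlap. Starved WT libraries held 87.3 and 92.6 CPM and starved RA libraries 47.4 and 50.9 CPM. All starved libraries were above all others, and the starved genotypes were apart. The WT mean rose 4.64-fold (2.16, SE 0.059, adjusted p = 1.99e-15) and the RA mean 2.60-fold (1.33, SE 0.059, adjusted p = 3.41e-12), a difference of -0.82 (SE 0.084, adjusted p = 5.27e-07). The study counts *Bnip3* among its Pontin methylation-dependent genes with these libraries in view, so its direction here is not independent evidence. The same holds for *Nbr1*, *Pink1*, *Map1lc3b* and *Ulk1*, which the study lists from a gene cluster of its RNA-seq. *Bnip3* in starved RA cells stood at 0.546 times the WT level (-0.86, SE 0.059, adjusted p = 1.8e-09), the lowest such value of the 10. In normal medium RA minus WT was -0.036 (SE 0.059, adjusted p = 0.756), with a sign that depended on the library left out.

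The *Bnip3* value cannot be assigned to 1 strand. *Gm45507*, annotated as antisense RNA, shares 504 of the 2265 exon bases of *Bnip3*, and the kit named in the labels does not mark strand. *Gm45507* stood at 73.6% to 78.2% of the *Bnip3* value in all 8 libraries, and at 65.6 and 69.7 CPM in starved WT cells against 35.4 and 38.3 CPM in starved RA cells. It was also the gene whose profile over the 8 libraries lay nearest to that of *Bnip3* among 10497 genes with a mean of at least 10 CPM, at a Euclidean distance of 0.069 between centred log2(CPM + 1) profiles. The next were *Pdia4*, an endoplasmic reticulum chaperone of the disulfide isomerase family, at 0.175, and *Hsdl1* at 0.197. For *Sqstm1* the nearest 3 were *Klf4*, a zinc finger transcription factor, at 0.312, *Mtss1l* at 0.343 and *D2Bwg1423e* at 0.442.

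*Bnip3l* (chr14:66985239-67008877, minus strand) encodes NIX, the close relative of BNIP3 known for clearing mitochondria from maturing red cells. The WT libraries gave 61.5 and 63.8 CPM in normal medium and 110 and 115 CPM under starvation. The RA libraries gave 69.7 and 72.6 CPM and then 83.1 and 84.7 CPM. RA was above WT in normal medium and below it under starvation, without overlap. *Bnip3l* rose 1.79-fold in WT (0.83, SE 0.044, adjusted p = 1.6e-11) and 1.18-fold in RA (0.23, SE 0.044, adjusted p = 1.68e-04), and the responses differed by -0.60 (SE 0.063, adjusted p = 7.06e-07). Starved RA was below starved WT by 0.42 (-0.42, SE 0.044, adjusted p = 3.89e-07). RA minus WT in normal medium was 0.18 (SE 0.044, adjusted p = 0.0163), and the call was lost without WT replicate 1 in normal medium (0.15, adjusted p = 0.167) or RA replicate 2 in normal medium (0.15, adjusted p = 0.101). It was also lost with scaling to total reads (0.13, adjusted p = 0.0557), with no filter (adjusted p = 0.0698) and without the trend (adjusted p = 0.116). A processed pseudogene, *Bnip3l-ps* on chromosome 12, can share its reads and stood at 9.69% to 12.5% of the *Bnip3l* value, so a part of either value is uncertain.

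*Fundc1* (chrX:17556564-17572325, minus strand) encodes an outer mitochondrial membrane receptor known from hypoxia, whose binding to LC3 is set by phosphorylation. It fell under starvation, from 22.7 and 24.8 CPM to 13.7 and 14.6 CPM in WT and from 26.7 and 24.1 CPM to 17.5 and 15.7 CPM in RA. The starved groups were below the others in both genotypes, and the genotypes overlapped in normal medium. The log2 change was -0.71 in WT (SE 0.080, adjusted p = 3.35e-07) and -0.59 in RA (SE 0.080, adjusted p = 4.85e-06), and the responses differed by 0.12 (SE 0.112, adjusted p = 0.392), which was not called. RA minus WT was 0.093 in normal medium (SE 0.080, adjusted p = 0.509). Under starvation it was 0.21 (SE 0.080, adjusted p = 0.0271), a call lost without starved WT replicate 1 (0.17, adjusted p = 0.144) or starved RA replicate 1 (0.14, adjusted p = 0.237) and after quantile normalization (0.059, adjusted p = 0.535). It was also lost with no filter (adjusted p = 0.0742), without the trend (adjusted p = 0.0549) and in DESeq2 on recovered reads (adjusted p = 0.0576).

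*Pink1* (chr4:138313409-138326307, minus strand) encodes the kinase that phosphorylates ubiquitin on damaged mitochondria and recruits Parkin. It had 8.87 and 8.51 CPM in WT and 10.4 and 10.2 CPM in RA in normal medium. Starved libraries held 17.9 and 18.0 CPM in WT and 12.6 and 11.7 CPM in RA. No groups overlapped, and the order of the genotypes turned between the media. *Pink1* rose 2.06-fold in WT (0.97, SE 0.083, adjusted p = 1.1e-08) and the responses differed by -0.75 (SE 0.118, adjusted p = 5.84e-05). The 1.18-fold rise in RA (0.22, SE 0.083, adjusted p = 0.0275) was not called without RA replicate 1 in normal medium (0.23, adjusted p = 0.0586), without RA replicate 2 in normal medium (0.21, adjusted p = 0.0902), without starved RA replicate 1 (0.17, adjusted p = 0.17), or in DESeq2 on recovered reads (0.23, adjusted p = 0.0585). RA minus WT was 0.22 in normal medium (SE 0.083, adjusted p = 0.108), not called, and -0.53 under starvation (SE 0.083, adjusted p = 3.56e-05).

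*Phb2* (chr6:124712336-124716950, plus strand) encodes prohibitin 2, an inner mitochondrial membrane protein that binds LC3 once the outer membrane has broken. The WT libraries held 196 and 195 CPM in normal medium and 199 and 206 CPM under starvation. The RA libraries held 208 and 217 CPM and then 173 and 169 CPM. The 4 groups did not overlap, with starved RA lowest. The change in WT was 0.049 (SE 0.038, adjusted p = 0.248), not called and of the opposite sign with scaling to total reads, while RA fell (-0.31, SE 0.038, adjusted p = 1.6e-06). The responses differed by -0.36 (SE 0.054, adjusted p = 3.59e-05), and starved RA was below starved WT (-0.24, SE 0.038, adjusted p = 3.7e-05). In normal medium RA minus WT was 0.12 (SE 0.038, adjusted p = 0.0601), not called, but called without RA replicate 1 in normal medium (0.15, adjusted p = 0.0312). *Gm15884*, annotated as antisense RNA over 141 exon bases of *Phb2*, stood at 39.0% to 42.4% of its value, so reads of the pair cannot be told apart here.

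**Figure D2:**
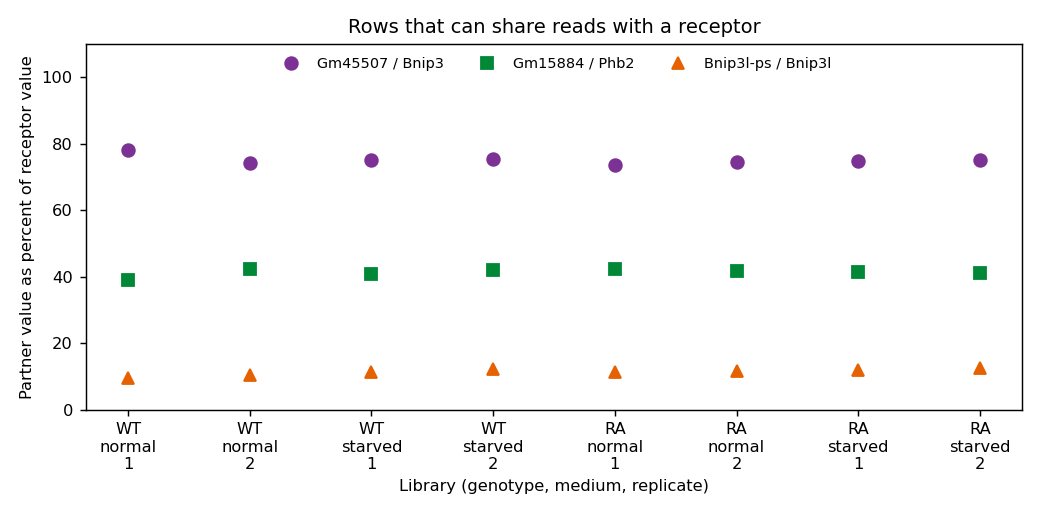
Value of the partner row as a percent of the receptor value (y axis) in each of the 8 libraries (x axis) for *Gm45507* and *Bnip3* (circles), *Gm15884* and *Phb2* (squares), and *Bnip3l-ps* and *Bnip3l* (triangles). The points stay between 73.6% and 78.2%, 39.0% and 42.4%, and 9.69% and 12.5%.

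Between the genotypes in normal medium 4 receptors were higher in RA and none lower, against 6.68% and 2.95% of all tested genes, with a median difference of 0.13 for the receptors and 0.0075 for all tested genes. The 4 were *Sqstm1*, *Tax1bp1*, *Calcoco1* and *Bnip3l*, and the count was 2 with no filter on low values or with scaling to total reads, 1 without the trend, and 2 without WT replicate 1 or RA replicate 2 in normal medium. This comparison moved with the scaling: of all genes called, 69.4% were higher in RA with the deposited values, 58.5% with median-ratio scaling, 52.6% with quantile normalization and 40.5% with scaling to total reads. Under starvation all 10 receptors differed between the genotypes, 3 higher in RA and 7 lower, against 30.8% and 32.1% of all tested genes, with medians of -0.35 and -0.0081. The 3 were *Sqstm1*, *Tax1bp1* and *Fundc1*.

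**Figure D3:**
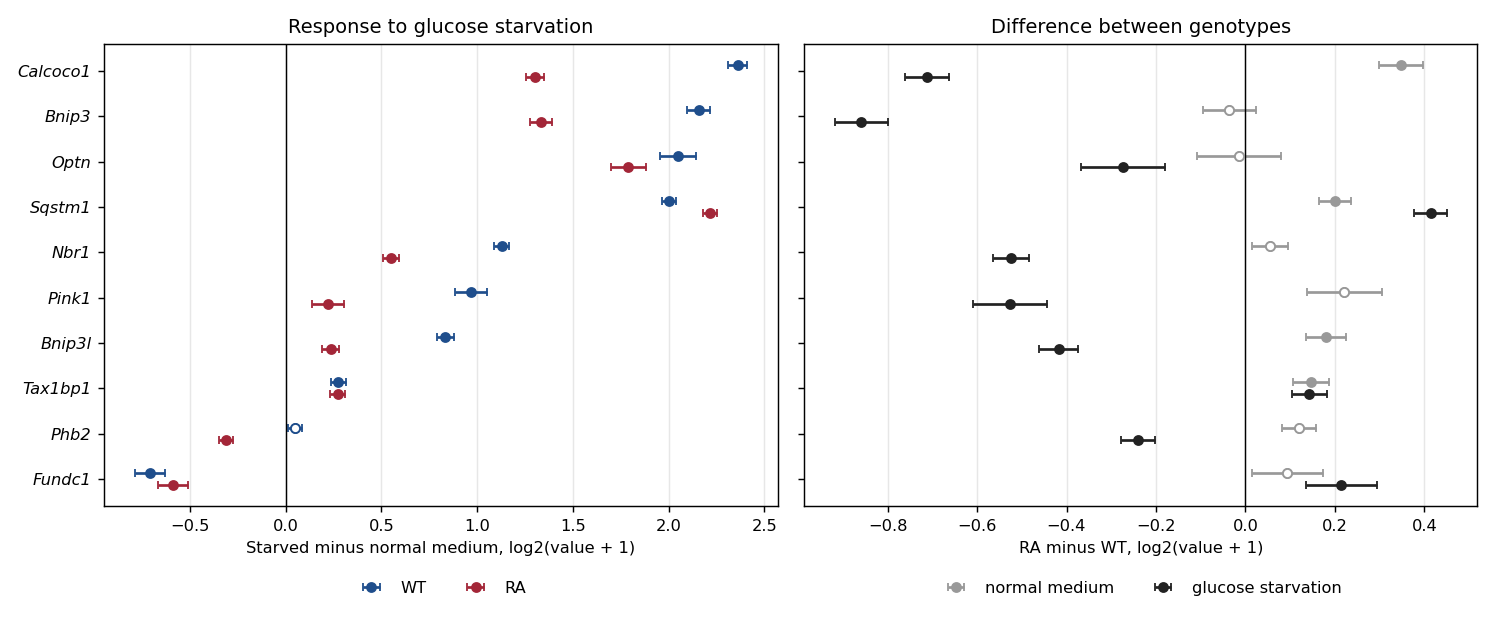
Differences on the log2(CPM + 1) scale (x axes) for the 10 receptors (y axis), with bars of 1 SE and open points where the adjusted p was 0.05 or more. The left panel gives starved minus normal medium in WT and in RA, with *Calcoco1* at 2.36 and 1.30, and the right panel RA minus WT in normal medium and under starvation, with *Bnip3* at -0.036 and -0.86.

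The receptors were also compared by the Euclidean distance between their centred log2(CPM + 1) profiles over the 8 libraries. Profiles were not scaled, so this distance reflects the size of a change as well as its shape. *Bnip3l* and *Pink1* lay nearest to each other, at a distance of 0.197, and *Nbr1* lay nearest to *Pink1* at 0.391. *Calcoco1* and *Bnip3* were each other's nearest, at 0.4525. *Sqstm1* and *Fundc1* lay farthest from any other receptor, at 0.824 from *Optn* and 0.884 from *Phb2*. These distances are descriptions over the same 8 libraries from 2 cell lines, and no test was made of them.

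Levels of different genes were compared per kb of annotated exon, with the exons of all annotated transcripts of a gene merged. On this scale *Sqstm1* had the highest value in all 4 groups. It ran from 54.8 ± 0.199 CPM per kb (SD, n = 2) in unstarved WT cells to 294 ± 0.674 in starved RA cells. *Phb2* followed at 52.6 ± 0.265 CPM per kb in unstarved WT cells and 46.0 ± 0.768 in starved RA cells. The merged length can exceed that of the mRNA made, so the order depends on this choice of length. Without division by length the mean of *Phb2* was above that of *Sqstm1* in normal medium. The means were 195.5 against 184.0 CPM in WT and 212.5 against 211.5 CPM in RA. In RA the libraries overlapped, with *Phb2* at 207.8 and 217.2 CPM and *Sqstm1* at 208.4 and 214.7 CPM, so their order there is not settled. In WT in normal medium the order went on with *Bnip3l* at 16.2, *Tax1bp1* at 12.1, *Fundc1* at 10.1, *Nbr1* at 9.38, *Bnip3* at 8.56, *Calcoco1* at 3.74, *Pink1* at 3.25 and *Optn* at 2.52 CPM per kb. Starvation moved *Bnip3* from the seventh place to the third in WT, at 39.7 ± 1.64 CPM per kb, and to the fourth in RA, at 21.7 ± 1.09. *Fundc1* went from the fifth place to the last in WT, at 6.01 ± 0.263 CPM per kb. Neighbours in the order did not overlap between their libraries in any group, with 1 exception, *Bnip3l* and *Bnip3* in starved RA cells.

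The other genes of selective autophagy were counted from a list of 41, of which 39 were tested. *Calcoco2*, which encodes NDP52, and *Park2*, which encodes Parkin, were not tested, with highest values of 0.853 and 1.11 CPM. In WT 25 of the 39 rose under starvation, 8 fell and 6 were not called, beside 39.3% higher and 39.2% lower over all tested genes, with a median change of 0.31 against 0.0049. In RA 21 rose, 10 fell and 8 were not called, beside 35.0% and 33.7%, with a median of 0.21 against 0.013. The response differed between genotypes for 26, of which 19 were lower and 7 higher in RA, beside 26.1% and 24.5%, with a median of -0.23 against -0.011. In normal medium 5 of the 39 were higher and 1 lower in RA, beside 6.68% and 2.95%. Under starvation 9 were higher in RA, a smaller share than the 30.8% of all tested genes, and 21 were lower, beside 32.1%. The narrower spread of responses in RA over all tested genes holds beside these medians too, and its part in them was not tested. The counts by role below rest on 2 to 10 genes each and stand beside these same shares.

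LC3 and GABARAP proteins, which the receptors bind, all rose in WT, 5 of 5, and in RA 4 rose and *Gabarapl2* fell. Their response was lower in RA for 4 of 5, with *Map1lc3a* not called. *Map1lc3b*, which encodes LC3B, went from 104 ± 3.48 to 228 ± 7.28 CPM in WT and from 116 ± 1.23 to 140 ± 4.72 CPM in RA (SD, n = 2), and the responses differed by -0.85 (SE 0.059, adjusted p = 4.56e-09). Of the kinases acting on receptors, 2 of 4 had a lower response in RA and 1 a higher one. *Ulk1*, the kinase that starts autophagosome formation, went from 33.5 ± 0.135 to 72.1 ± 0.467 CPM in WT and from 32.8 ± 2.05 to 40.1 ± 0.864 CPM in RA (difference -0.80, SE 0.076, adjusted p = 2.04e-07). *Src*, a tyrosine kinase known to phosphorylate FUNDC1, fell in WT from 85.7 ± 2.64 to 62.8 ± 2.13 CPM and gave 88.1 ± 3.76 and 86.7 ± 5.51 CPM in RA (difference 0.42, SE 0.072, adjusted p = 1.39e-04).

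The list holds 3 receptors of other cargo and 7 of the endoplasmic reticulum. The 3 receptors of other cargo all rose in WT, and all 3 had a lower response in RA. *Stbd1*, a glycogen-binding receptor, went from 19.5 ± 1.55 to 104 ± 0.916 CPM in WT (2.36, SE 0.066, adjusted p = 2.24e-15) and from 20.3 ± 1.97 to 67.5 ± 2.14 CPM in RA, a difference of -0.67 (SE 0.093, adjusted p = 1.54e-05). Of the 7 receptors of endoplasmic reticulum autophagy 5 rose and 2 fell in WT, and the response was higher in RA for 2, lower for 3 and not called for 2, with a median of -0.11. *Cdk5rap3* rose in WT from 30.0 ± 0.0697 to 82.4 ± 0.138 CPM (1.43, SE 0.048, adjusted p = 2.82e-14), and *Atl3*, an atlastin that shapes the reticulum, fell from 138 ± 1.39 to 86.4 ± 1.33 CPM (-0.67, SE 0.048, adjusted p = 1.02e-09). In RA *Cdk5rap3* rose from 30.6 ± 0.589 to 54.1 ± 0.766 CPM, a difference of responses of -0.63 (SE 0.068, adjusted p = 9.81e-07). *Atl3* gave 138 ± 10.9 and 121 ± 3.39 CPM in RA, and its response differed by 0.49 (SE 0.068, adjusted p = 1.63e-05), the highest of the list. Among the ubiquitin-binding adaptors and scaffolds *Tollip* rose in WT from 37.9 ± 0.779 to 88.9 ± 4.22 CPM (1.21, SE 0.048, adjusted p = 3.21e-13). In RA *Tollip* rose from 40.3 ± 0.106 to 62.9 ± 1.12 CPM, a difference of responses of -0.58 (SE 0.068, adjusted p = 2.84e-06).

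Of the 10 tested genes of the PINK1 and Parkin pathway 4 rose and 2 fell in WT, and the response was higher in RA for 3, lower for 2 and not called for 5, beside 24.5% and 26.1% of all tested genes. *Vcp*, the ATPase that extracts ubiquitinated proteins from membranes, fell in WT from 752 ± 18.5 to 403 ± 10.4 CPM (-0.90, SE 0.042, adjusted p = 2.96e-12). It also fell in RA, from 750 ± 35.2 to 392 ± 11.6 CPM, and the difference of responses was not called (-0.036, SE 0.060, adjusted p = 0.645). *Oma1*, an inner membrane protease, gave 11.9 ± 0.399 and 10.8 ± 0.331 CPM in WT and 12.2 ± 0.0599 and 15.0 ± 0.490 CPM in RA, a difference of responses of 0.40 (SE 0.116, adjusted p = 0.00789). Of the 5 other mitochondrial receptors 1 rose and 2 fell in WT, with *Nipsnap1* falling from 3.54 ± 0.0414 to 1.32 ± 0.362 CPM (-0.98, SE 0.131, adjusted p = 2.98e-06). *Nipsnap1* also fell in RA, from 4.10 ± 0.115 to 1.65 ± 0.00467 CPM, with no called difference of responses (0.033, SE 0.186, adjusted p = 0.899). All 3 deubiquitinases of mitophagy rose in WT, and 2 of 3 had a lower response in RA.

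**Figure D4:**
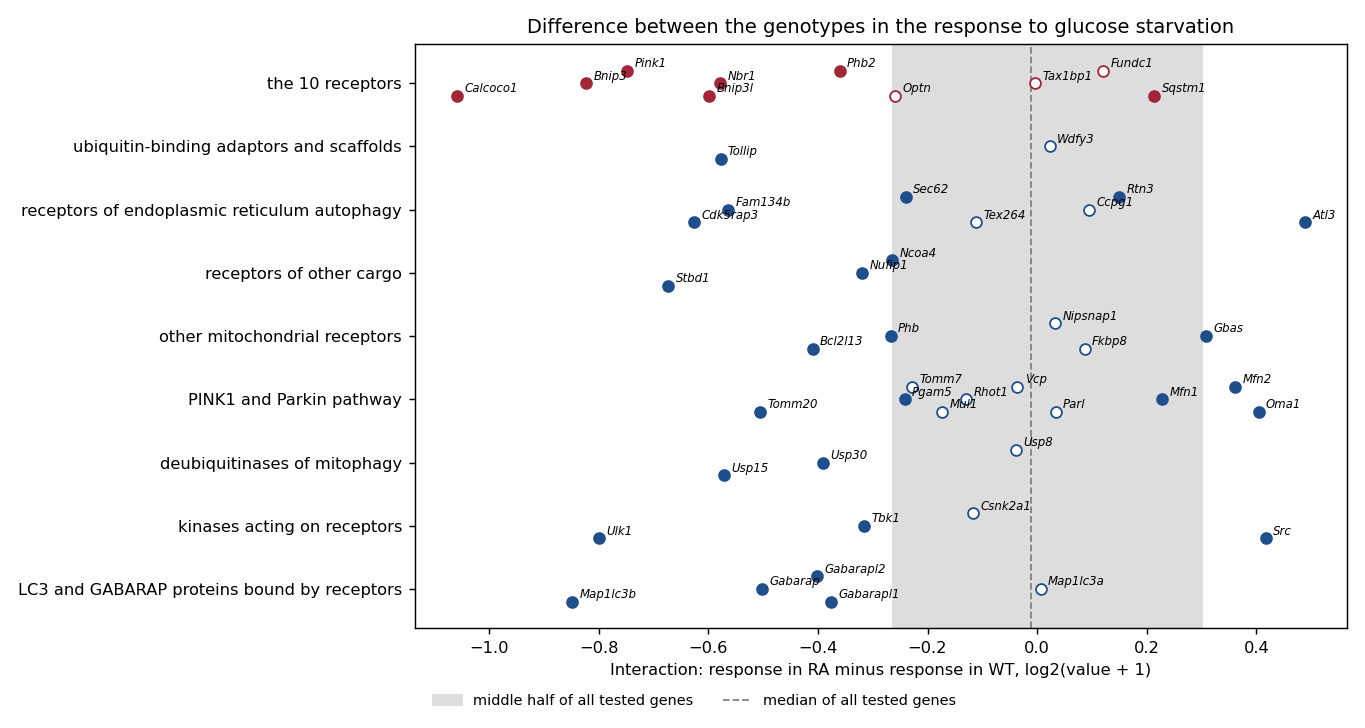
Response in RA minus response in WT on the log2(CPM + 1) scale (x axis) for the 10 receptors and the 39 other tested genes by role (y axis), with open points where the difference was not called. The grey band holds the middle 50% of all 16232 tested genes, from -0.26 to 0.30, and 6 of the 10 receptors were called below 0, from *Calcoco1* at -1.06 to *Phb2* at -0.36.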

How the data were processed

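Expression was measured by polyA RNA-seq in 8 MEF libraries, 4 groups of 2 taken per the labels. The columns of the deposited table carry minus and plus, which were taken to mean normal medium and starvation, since the study's figures mark starvation with these signs. The authors prepared TruSeq RNA v2 libraries and, per the labels, mapped reads to mm9 with TopHat2 (version 2.0.9) and used bedtools and edgeR. The counter, annotation and handling of strand are not given in the sources used here. Each deposited value is a signal, a gene's reads in CPM of a library size that the authors scaled. In every library 100% of values were a whole number of reads within 0.1 read, and column sums ran from 965845 to 1029723. Of the recovered counts from 1 to 9, 78.2% to 80.5% were even, the pattern of counting each mate of a read pair. Floors cover counting error only.

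Genes at 1 CPM or more in at least 2 libraries were tested, on log2(CPM + 1), which understates changes of low genes. limma (version 3.58.1, R version 4.3.3) fitted 4 group means over 8 libraries with a mean-variance trend, and 5 contrasts were each adjusted by Benjamini-Hochberg, 2-sided, with calls at an adjusted p under 0.05. The planned unit was CPM, and the scaled CPM found took the same test. The p-values measure the spread between these libraries, which may be technical. The receptors, the other lists and the rule for named genes (all 10 receptors, and of the list of 41 the 3 highest and 3 lowest called in the WT response and in the difference of responses) were chosen with earlier results of these data known. Gene positions and exon lengths are from GENCODE mouse release M21 on GRCm38, not the mm9 build of the files.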

Additional observations from a re-analysis of the deposited data

Results flagged for a closer look

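The response to glucose starvation differed between the RA and WT cells, by the test of the difference of responses in limma, for 7 of the 10 receptors. On the log2(CPM + 1) scale, RA minus WT, the difference was -1.059 for *Calcoco1*, -0.8229 for *Bnip3*, -0.7475 for *Pink1*, -0.598 for *Bnip3l*, -0.5786 for *Nbr1* and -0.3604 for *Phb2*, and 0.2137 for *Sqstm1*. Among the other genes of selective autophagy that are named by rule it was -0.8488 for *Map1lc3b*, -0.8002 for *Ulk1* and -0.6727 for *Stbd1*, and 0.4889 for *Atl3*, 0.4175 for *Src* and 0.4044 for *Oma1*. The study lists *Bnip3*, *Pink1*, *Nbr1*, *Map1lc3b* and *Ulk1* from a gene cluster of its RNA-seq, so their direction in these libraries is not independent evidence. Groups of 2 libraries are too small for a check of single libraries that stand apart.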

How the results depend on the processing

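Of the receptor results under the other settings, 844 kept their direction and side of the threshold, 32 lost a call, 3 gained one and 11 changed sign. The 4 receptors called between genotypes in normal medium became 2 with no filter, 2 with scaling to total reads and 1 without the trend, and leaving out 1 library gave 2 to 4, with 2 without WT replicate 1 or RA replicate 2 in normal medium. For the list of 41 the 6 calls of that comparison became 1, 3 and 0 under those settings, and 0 to 6 with 1 library left out: 0 without WT replicate 1, 2 without WT replicate 2 and 2 without RA replicate 2 in normal medium. At an adjusted p under 1e-05 the receptors called were 0 in normal medium, 5 of 10 under starvation and 4 of 7 for the difference of responses, and for the list 14 of 31 in the RA response, 0 of 6, 14 of 30 and 7 of 26. For the filter, the scaling and the trend the cause was not tested. The signs that changed were all of values not called: *Phb2* in WT with scaling to total reads (-0.024), *Tax1bp1* responses with quantile normalization (0.0498), scaling to total reads (0.0678), edgeR (0.0255) and libraries left out (-0.0417 to 0.0348), *Fundc1* responses with quantile normalization (-0.0281), and in normal medium *Optn* (-0.188 to 0.159) and *Bnip3* (-0.0869 to 0.0149) with libraries left out. No scaling moved the median of all genes by over 0.1. Higher calls under starvation were 49.0% of calls between genotypes with the deposited values, 46.9% with median-ratio scaling, 40.6% with quantile normalization and 51.9% with scaling to total reads. For the difference of responses they were 48.4%, 48.5%, 43.0% and 58.1%. On recovered reads edgeR (version 4.0.16) called 12705 genes in the WT response, 11114 in the RA response, 1555 and 10194 between genotypes in normal medium and under starvation, and 8096 for the difference of responses, where limma called 12756, 11157, 1563, 10211 and 8207 and DESeq2 (version 1.42.0) 12298, 10553, 1399, 9633 and 7449. Replicate numbers are shared by the groups with no stated pairing, and same-numbered libraries correlated at -0.0076 to 0.157 in their deviations from the group means over 16232 genes. With a replicate block, *Phb2* in normal medium became called (0.12, adjusted p = 0.0355), no other receptor call changed, and 2059 genes were called in that comparison in place of 1563. With 2 libraries a group, small differences such as those in normal medium are the least certain.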
